A study of Homo sapiens with 12 samples.

Results

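The comparison described here set Kelly cells with an induced short hairpin RNA (shRNA) against RCOR1 beside Kelly cells with an induced non-targeting shRNA. Its members are 4 of the series' 12 RNA-seq libraries, chosen by their labels: replicates 1 and 2 of the line called shRCOR1 and replicates 1 and 2 of the line called shCTRL, all of them treated with doxycycline. Kelly is an established human neuroblastoma cell line with an amplified MYCN gene and an adrenergic cell state. The study derived 3 lines from it, each expressing an shRNA from a doxycycline-inducible system (shRCOR1, shRCOR2 or shCTRL), and sequenced each line untreated and treated, with 2 libraries per group. The question that the comparison addresses is which transcripts differ when RCOR1 is knocked down and the drug is present on both sides.

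Every treated library had received doxycycline at 2 µg/mL. The labels give 72 h as the time of each library, whereas the treatment protocol names 24 h or 48 h of induction, so the length of induction is uncertain. Each target is represented by 1 shRNA line in the labels, and they do not say whether a line is a clone or a pool or whether replicates are separate cultures. The p-values therefore measure only the spread between these libraries, which may be technical. A difference between shRCOR1 and shCTRL can also hold what separated the lines before induction, so the untreated libraries of both lines were compared in the same way.

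RCOR1 encodes CoREST1, the scaffold that joins the lysine demethylase LSD1 (KDM1A) to the histone deacetylases HDAC1 and HDAC2. Sequence-specific repressors such as REST, INSM1 and the SNAI factors recruit this complex to chromatin, where it removes active histone marks. The complex is best known as a repressor of neuronal genes. RCOR2 and RCOR3 are its paralogs and can take its place in the complex.

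The values are TPM, transcript abundances corrected for transcript length and library size. Differences were estimated with limma on log2(TPM + 1) with the replicate number as a block, a scale that understates the change of genes near 0, and genes with a p below 0.05 after Benjamini-Hochberg adjustment over the 16842 genes tested are referred to as called. The 4 libraries detected 14795 to 16026 genes at 1 TPM or more. Their depth spanned 1.16 to 1.83 times that of the shallowest of the 12 libraries, judged from the ratio of coverage to FPKM, with induced shCTRL replicate 2 the deepest of the 4. The mitochondrial genome took 13.3% and 16.5% of the TPM in the induced shRCOR1 libraries and 15.5% and 19.9% in the induced shCTRL libraries. Replicates correlated across genes at r = 0.984 for induced shRCOR1 and 0.967 for induced shCTRL, the lowest of the 6 groups. The adrenergic markers PHOX2A, HAND2, GATA3, ISL1, TH and DBH were at 27.6 TPM or more in all 4 libraries.

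RCOR1 (ENSG00000089902.10, chr14:102592649-102730561, GRCh38) was at 4.80 and 5.07 TPM in the induced shRCOR1 libraries and at 8.83 and 9.15 TPM in the induced controls. Both knockdown libraries lay below both controls, and the untreated libraries of the 2 lines lay at 8.32 to 10.7 TPM. The log2 difference was -0.75 ± 0.11 (SE, n = 2 libraries per group, limma adjusted p = 0.00197). The difference between the lines was larger with doxycycline than without it, by -0.60 ± 0.16 on the log2 scale (adjusted p = 0.0452), a call that was not made without the replicate block (adjusted p = 0.158).

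RCOR2, the paralog, was also lower. It was at 26.0 and 26.3 TPM in the induced shRCOR1 libraries and at 49.7 and 42.7 TPM in the controls, with no overlap between the groups. The log2 difference was -0.79 ± 0.10 (adjusted p = 0.00112), of the same order as that of the targeted gene itself. In the induced shRCOR2 line RCOR2 was at 17.7 and 20.5 TPM, which was lower still (log2 difference of shRCOR1 against shRCOR2 0.44, adjusted p = 0.00731), while RCOR1 stood at 9.29 and 9.92 TPM there. The third paralog, RCOR3, was at 32.8 and 40.1 TPM against 38.2 and 55.8 TPM and was not called (log2 difference -0.34 ± 0.12, adjusted p = 0.0607). It was called lower when induced shCTRL replicate 1 was left out (-0.49, adjusted p = 0.0226) and with FPKM, median-of-ratios or quantile scaling (adjusted p = 0.0159 to 0.0275). KDM1A, the catalytic partner, was at 282 and 270 TPM against 287 and 291 TPM and was not called (adjusted p = 0.421).

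**Figure D1:**
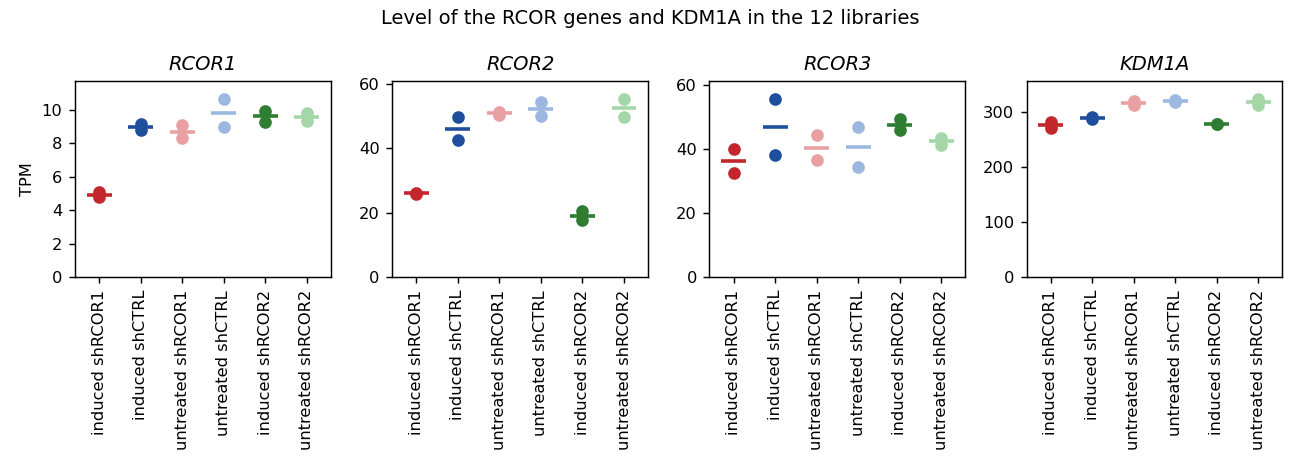
Levels of RCOR1, RCOR2, RCOR3 and KDM1A in TPM (linear axes from 0) in each library, by line and treatment. Points are libraries and horizontal lines are means of 2 libraries. The 2 induced shRCOR1 libraries are the lowest for RCOR1, at 4.80 and 5.07 TPM, while RCOR2 is low in both the induced shRCOR1 and the induced shRCOR2 libraries.

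Among the 22 tested genes of CoREST subunits and the factors that recruit the complex, 2 were called higher and 6 lower, a share of 36.4% beside 26.6% of all genes tested. The lower members besides RCOR1 and RCOR2 included HMG20B (-0.67), ZMYM3 (-0.33) and the repressor INSM2 (-1.48), all on the log2 scale. HMG20B, a DNA-bending subunit, lost its call without the block (adjusted p = 0.171). The called higher members were the repressors SNAI1 (0.57) and ZEB2 (0.63), neither of which was called without induced shRCOR1 replicate 2. With the same library left out 4 members were called lower, and without induced shRCOR1 replicate 1 or induced shCTRL replicate 2 there were 3.

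Across all genes, 4484 of 16842 were called between induced shRCOR1 and induced shCTRL, of which 2634 (15.6%) were higher and 1850 (11%) lower. Most differences were small: 363 genes (2.16%) were at least 2-fold higher and 172 (1.02%) at least 2-fold lower, and 48 and 4 passed 4-fold. The share of calls that were higher, 58.7%, depended on the scaling, since it was 47.3% with FPKM, 48.1% with median-of-ratios scaling and 50.8% with quantile normalization. The replicate number carried much of the spread, and without it as a block 1515 genes (9%) were called, 975 higher and 540 lower. Without induced shRCOR1 replicate 1 or 2 the total was 2363 or 2101. Both knockdown libraries lay above both controls in 25% of the genes tested and below both in 18.3%.

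In the untreated libraries the same 2 lines gave 0 called genes (0%) in limma, with 446 genes (2.65%) at an unadjusted p below 0.05. The difference of the differences (shRCOR1 against shCTRL with doxycycline, minus the same without it) was called for 1712 genes (10.2%), 1110 higher (6.59%) and 602 lower (3.57%). Of the 2634 genes called higher in the induced libraries 1104 were also called higher in this test of the difference, and of the 1850 lower genes 596 were also called lower. Among the calls of at least 2-fold the test of the difference was passed by 307 of 363 and 118 of 172. Without the block the difference was called for 216 genes (1.28%), and for 595 to 820 genes when 1 of the untreated libraries or 1 of the induced shRCOR1 libraries was left out. The 2 comparisons share the induced libraries and so are not independent.

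**Figure D2:**
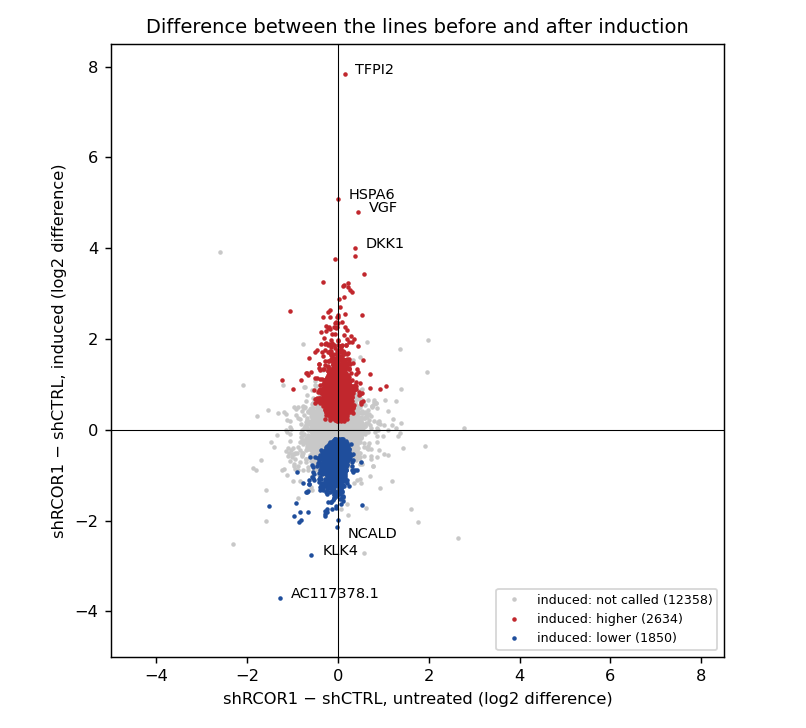
Log2 difference of shRCOR1 against shCTRL in the untreated libraries (x axis) and in the doxycycline-treated libraries (y axis) for the 16842 genes tested, on the log2(TPM + 1) scale. Coloured points are genes called in the induced comparison. The points spread along the y axis, from TFPI2 at 7.84 to AC117378.1 at -3.71 among the labelled genes, while no gene is called on the x axis.

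The 15 largest called increases held a protease inhibitor, an inducible heat shock protein, secreted peptides and cytokines, and feedback regulators of the ERK kinase cascade. The sequences just before the start sites of 6 genes are printed here. They were chosen because they hold a match, and because heat shock, cAMP and AP-1 elements are the best known control elements of those gene classes. Each window is the 160 bases before the start, 5′ to 3′ on the gene's strand, from RefSeq promoters of build GRCh38.p14. Capitals mark the motif named. Motifs were searched on both strands in the 250 bases before each start. A match is a description of the letters and shows no binding.

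HSPA6 (chr1:161524380-161524539 on the plus strand) and HSP90AA1 (chr14:102087045-102087204 on the minus strand) each held the heat shock element, searched as GAA, TTC and GAA separated by a pair of any bases each time, and read here on the opposite strand. The HSPA6 window also holds the AP-1 letters TGANTCA, in lower case.
HSPA6: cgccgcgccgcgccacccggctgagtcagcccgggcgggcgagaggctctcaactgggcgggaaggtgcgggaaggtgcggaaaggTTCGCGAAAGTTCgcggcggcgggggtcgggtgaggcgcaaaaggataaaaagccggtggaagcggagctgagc
HSP90AA1: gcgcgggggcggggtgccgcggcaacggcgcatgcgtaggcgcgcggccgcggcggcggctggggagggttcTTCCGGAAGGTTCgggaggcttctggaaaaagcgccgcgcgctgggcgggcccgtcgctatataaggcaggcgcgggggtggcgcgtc
VGF (chr7:101165570-101165729 on the minus strand) and CGA (chr6:87095107-87095266 on the minus strand) held the cAMP response element TGACGTCA, once in VGF and at 2 places in CGA.
VGF: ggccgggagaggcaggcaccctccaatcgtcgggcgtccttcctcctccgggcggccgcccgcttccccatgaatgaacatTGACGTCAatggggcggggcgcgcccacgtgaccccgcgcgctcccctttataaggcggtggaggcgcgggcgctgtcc
CGA: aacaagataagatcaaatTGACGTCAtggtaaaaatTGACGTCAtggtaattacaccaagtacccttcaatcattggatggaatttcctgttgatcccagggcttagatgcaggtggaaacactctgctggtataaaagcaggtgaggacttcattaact
TFPI2 (chr7:93890754-93890913 on the minus strand) and IL11 (chr19:55370464-55370623 on the minus strand) held the AP-1 element TGANTCA.
TFPI2: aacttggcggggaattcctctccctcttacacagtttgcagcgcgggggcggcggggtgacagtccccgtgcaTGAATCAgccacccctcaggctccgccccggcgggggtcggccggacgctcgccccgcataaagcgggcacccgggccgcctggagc
IL11: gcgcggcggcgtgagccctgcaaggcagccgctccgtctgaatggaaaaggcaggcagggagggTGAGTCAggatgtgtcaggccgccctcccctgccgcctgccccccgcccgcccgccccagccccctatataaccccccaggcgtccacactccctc

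Over all 35116 promoters in the table the heat shock element was found in 0.441%, the cAMP response element in 1.65% and the AP-1 element in 6.57%. Counted by gene, over 27305 genes that can have several promoters, these shares were 0.557%, 2.03% and 8.06%. Of the 15 largest increases 10 had a promoter in the table, of which 1 (HSPA6) held the heat shock element, 2 (CGA and VGF) the cAMP response element and 3 (HSPA6, IL11 and TFPI2) the AP-1 element. Of the 20 heat shock genes with a promoter in the table, 6 held the heat shock element (CHORDC1, HSP90AA1, HSP90AB1, HSPA6, HSPA8 and HSPD1). Of the 21 neuropeptide, hormone and granule genes with a promoter, 6 held the cAMP response element (CARTPT, CGA, CHGA, PCSK1, SST and VGF). Of the 15 ERK genes with a promoter, 3 held the AP-1 element and 1 the cAMP response element. None of the 20 AP-1 and immediate early genes with a promoter held the AP-1 letters in this window.

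TFPI2 (ENSG00000105825.14, chr7:93885396-93890753, minus strand), a secreted inhibitor of plasmin and other serine proteases, showed the widest gap. It was at 304 and 249 TPM in the induced shRCOR1 libraries and at 0.270 and 0.142 TPM in the controls. It stayed below 1 TPM in the other 8 libraries too, including the induced shRCOR2 libraries at 0.368 and 0.156 TPM, so that 2 of the 12 libraries were high. The log2 difference was 7.84 ± 0.16 (adjusted p = 1.09e-07).

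Members of the protease and protease inhibitor list were called higher 8 times of 15 tested and lower 0 times, beside 15.6% and 11% of all genes, with a median log2 difference of 0.54. KLK4, a protease that was called lower (-2.75), was not a member of this list. PLAT, tissue plasminogen activator, was at 46.4 and 27.8 TPM against 6.0 and 7.17 TPM (2.29 ± 0.21, adjusted p = 0.000291). Both knockdown libraries were several times above both controls. The metalloproteinase inhibitor TIMP2 was at 141 TPM in each knockdown library and at 51.6 and 67.0 TPM in the controls (1.25 ± 0.10). TIMP1 (0.54), TIMP3 (1.32), PLAU (1.29), MMP9 (1.49) and ADAMTS1 (0.97) made up the rest. All 8 were also called higher in the difference between the induced and untreated comparisons, beside 6.59% of all genes, and 3 were without the block. In the induced comparison 4 members were called without the block.

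The ERK list held feedback phosphatases, Sprouty and SPRED inhibitors and ETV transcription factors, genes known to rise when the RAS-ERK cascade is active. Of 22 tested members 17 were called higher and 0 lower, beside 15.6% of all genes called higher, with a median of 1.16. DUSP4, a nuclear ERK phosphatase, was at 58.0 and 55.8 TPM against 5.64 and 4.69 TPM (log2 difference 3.24 ± 0.12, adjusted p = 6.46e-06). DUSP6, the cytoplasmic ERK phosphatase, was at 59.9 and 59.4 TPM against 8.73 and 3.55 TPM (3.19 ± 0.23). The knockdown replicates agreed closely for both genes while the control replicates of DUSP6 were further apart. DUSP5 was at 22.1 and 39.0 TPM against 2.77 and 2.05 TPM (3.17 ± 0.24).

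SPRY4, an inhibitor of signalling upstream of RAS, was at 42.4 and 117 TPM against 5.27 and 3.04 TPM (3.83 ± 0.46, adjusted p = 0.000863). ETV4, an ETS factor downstream of ERK, was at 43.5 and 47.5 TPM against 8.26 and 1.01 TPM (3.43 ± 0.46, adjusted p = 0.00142). Both genes were chosen with no overlap between groups, and in each 1 replicate of a pair stood well apart from the other. Cyclin D1 (CCND1) was at 238 and 243 TPM against 110 and 69.5 TPM (1.45). UPP1 (1.82), ETV5 (1.84) and the receptor EPHA2 (1.28) were also higher. The count of called members was 12 without the block, and 10 without induced shRCOR1 replicate 2, where the median was 0.66.

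Immediate early genes, the first genes to be transcribed after a stimulus, followed the same direction, with 14 of 21 tested members called higher and 0 lower (median 1.16), beside 15.6% and 11% of all genes. This list shares FOSL1 and IER3 with the ERK list. MAFF, a small MAF factor, was at 39.1 and 46.5 TPM against 7.22 and 5.90 TPM (2.53 ± 0.22, adjusted p = 0.000209). The AP-1 subunit FOSL2 was at 48.8 and 54.7 TPM against 13.4 and 16.2 TPM (1.74 ± 0.11). The groups of FOSL2 were far apart relative to their spread. DUSP1 (2.50), NR4A1 (1.73), DUSP2 (1.72), KLF6 (1.48), NR4A3 (1.16) and ATF3 (89.6 and 129 TPM against 35.8 and 79.3 TPM) were higher as well. DUSP1 and ATF3 were not called without the block (adjusted p = 0.0661 and 0.106), where 9 members were, and 7 were called without induced shRCOR1 replicate 2.

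Secreted peptides stored in dense granules were among the strongest differences. VGF, a granin family precursor of neuropeptides, was at 227 and 479 TPM against 18.2 and 6.41 TPM (4.79 ± 0.46, adjusted p = 0.000325). CGA, the common alpha subunit of the glycoprotein hormones, was at 6.61 and 34.2 TPM against 0.0609 and 0.351 TPM (3.77 ± 0.47). The 2 knockdown libraries differed strongly in CGA, a gene chosen with no overlap between groups. PENK, the precursor of the enkephalins, was at 13.2 and 16 TPM against 1.05 and 0.728 TPM (3.04 ± 0.15).

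VIP (2.56), SCG2 (1.90), NPY (1.71) and GAL (1.25) were also called higher, so 7 of the 16 tested neuropeptide, hormone and granule genes were higher, beside 15.6% of all genes. The exception was CHGA, chromogranin A, at 1331 and 910 TPM against 2389 and 1338 TPM (-0.70 ± 0.20, adjusted p = 0.0352). The higher knockdown library lay just under the lower control, and the gene was not called without the block (adjusted p = 0.166). VIP was also at 9.03 TPM on average in the induced shRCOR2 libraries, and the difference between the 2 knockdown lines was not called (-0.38, adjusted p = 0.172).

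Among cytokines and secreted regulators 10 of 20 tested genes were called higher and 0 lower, beside 15.6% of all genes called higher, with a median of 0.57. DKK1, a secreted antagonist of Wnt receptors, was at 406 and 443 TPM against 33.4 and 19.2 TPM (4.01 ± 0.20, adjusted p = 2.11e-05). IL11, a cytokine of the IL-6 family, was at 32 and 66.5 TPM against 2.36 and 6.18 TPM (3.27 ± 0.28, adjusted p = 0.000225). HBEGF, a ligand of the EGF receptor, was at 9.40 and 12.4 TPM against 2.54 and 2.56 TPM (1.73). DKK1 and IL11 were chosen with no overlap between groups, and for HBEGF both knockdown libraries also lay above both controls. The smaller calls were less firm: the count was 4 without the block, 3 without induced shRCOR1 replicate 2 and 4 without induced shCTRL replicate 1.

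**Figure D3:**
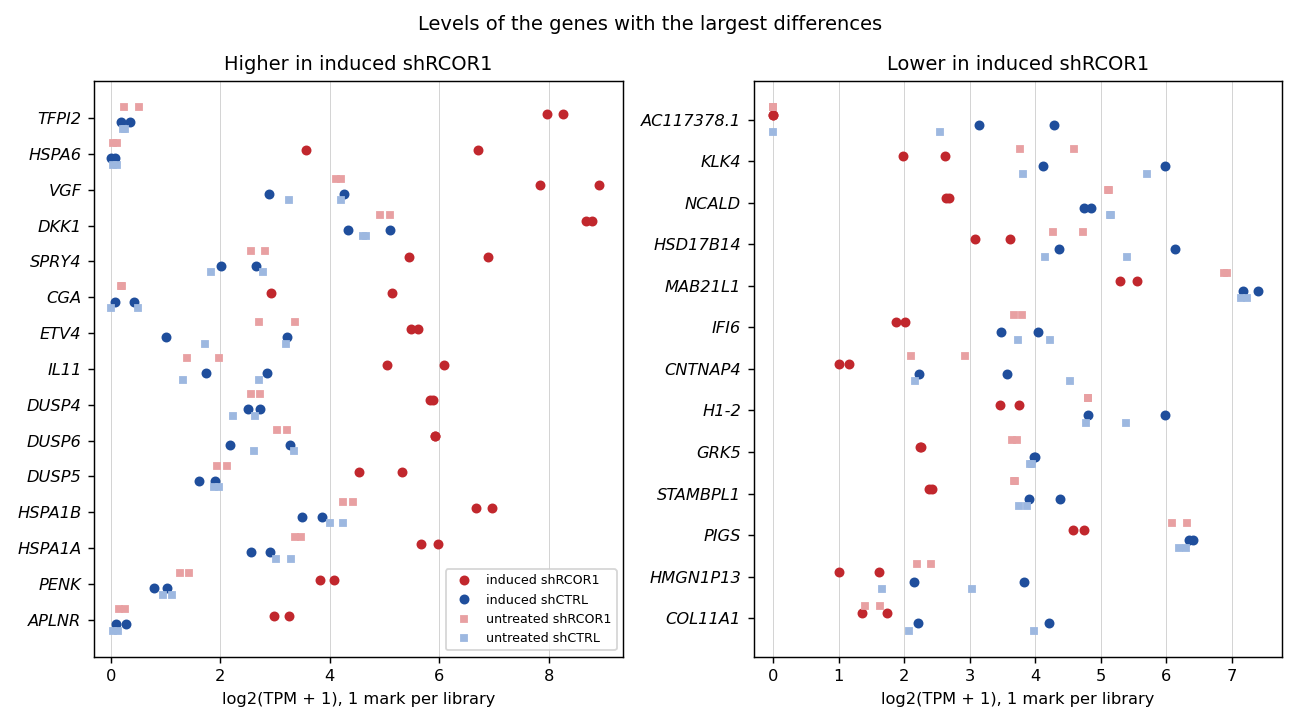
Levels as log2(TPM + 1) of genes with the largest called differences in each direction, in the 4 induced libraries (circles) and the 4 untreated libraries (squares) of the shRCOR1 and shCTRL lines, with 1 mark per library. The induced shRCOR1 points stand apart from the other 3 groups for TFPI2, DKK1, DUSP4 and PIGS, while KLK4 and COL11A1 spread widely within the control line.

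The heat shock list held mainly chaperones that refold or hold damaged proteins, with the mitochondrial HSPD1 and the transcription factor HSF1 among its members. Its genes were higher as a group: 18 of 21 tested were called higher and 0 lower (median 0.77), beside 15.6% and 11% of all genes. HSPA6, an HSP70 that is nearly silent in unstressed cells, was at 10.8 and 103 TPM in the induced shRCOR1 libraries. In the controls it was listed at 0 TPM and at 0.0537 TPM, so the log2(TPM + 1) difference of 5.09 ± 0.69 (adjusted p = 0.00146) is given without a fold. Leaving out 1 library moved it between 3.55 and 6.64. HSPA1B was at 101 and 124 TPM against 13.4 and 10.3 TPM (3.15 ± 0.16, adjusted p = 2.25e-05). HSPA1A and HSPA1B are near-identical copies, and HSPA6 has a close copy in HSPA7, so how reads were divided among them is uncertain.

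The HSP90 genes differed less but from a high level. HSP90AA1 was at 1441 and 1178 TPM against 591 and 363 TPM (1.49 ± 0.14), and HSP90AB1 at 3720 and 3410 TPM against 1983 and 1887 TPM (0.88 ± 0.06, adjusted p = 8.32e-05). DNAJB1 (1.46), HSPH1 (1.43), HSPA8 (1.37), AHSA1 (1.02) and CHORDC1 (1.01) showed differences of similar size. HSF1, the factor that controls these genes, was at 106 and 114 TPM against 90.4 and 106 TPM and was not called (adjusted p = 0.216). The count was 12 without the block and between 14 and 19 when 1 of the 4 libraries was left out. Of the 21 tested genes 13 were also called higher in the difference between the induced and untreated comparisons, beside 6.59% of all genes. That count was 3 without the block. Against induced shRCOR2 19 were called higher, beside 20.7% of all genes.

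**Figure D4:**
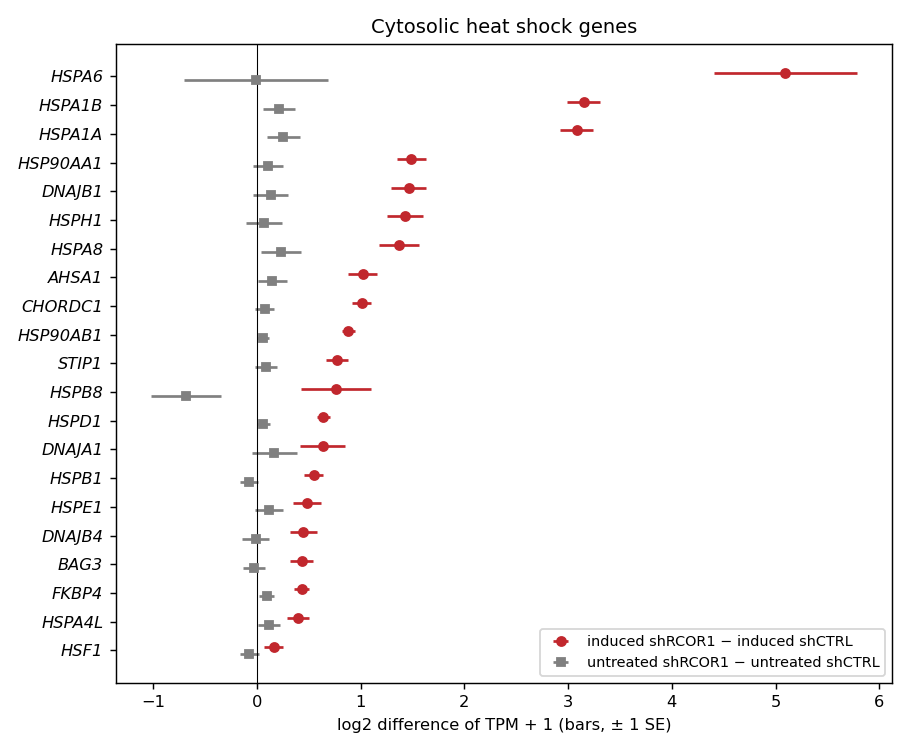
Log2 difference of TPM + 1 between shRCOR1 and shCTRL for the 21 tested genes of the heat shock list, with doxycycline (circles) and without it (squares). Bars are ± 1 SE. With doxycycline the heat shock genes lie right of 0, from 0.16 for HSF1 to 5.09 for HSPA6.

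The 15 largest called decreases were smaller. In 7 of them the 2 induced shCTRL libraries were over 2-fold apart. In 5 of the 15 largest increases the 2 induced shRCOR1 libraries were over 2-fold apart. The induced controls of VGF, ETV4, DUSP6 and IL11, which are among the increases, were that far apart too. So were those of CGA, HSPA6 and the apelin receptor gene APLNR, all below 1 TPM in the controls. Without the block 8 of the 15 decreases and all 15 of the increases were called. NCALD, neurocalcin delta, a neuronal calcium sensor, was at 5.43 and 5.21 TPM against 25.8 and 27.9 TPM (-2.14 ± 0.08, adjusted p = 6.46e-06). It was also lower with induced shRCOR2, at 16.9 and 16.7 TPM, and the 2 knockdown lines differed (-1.49, adjusted p = 6.32e-06). PIGS, a subunit of the transamidase that attaches GPI anchors, was at 22.8 and 25.8 TPM against 80.6 and 83.9 TPM (-1.72 ± 0.08). GRK5, a kinase that desensitizes G protein-coupled receptors, was at 3.77 and 3.73 TPM against 14.8 and 15 TPM (-1.75 ± 0.12). In these genes the replicates were close and the groups far apart.

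MAB21L1 (-1.86), IFI6 (-1.82), STAMBPL1 (-1.74) and the linker histone H1-2 (-1.78) were also called with and without the block. KLK4, a kallikrein protease, was at 2.93 and 5.15 TPM against 16.3 and 62.2 TPM (-2.75, adjusted p = 0.000665 with the block and 0.0993 without). HSD17B14, a hydroxysteroid dehydrogenase, was at 7.45 and 11.2 TPM against 19.6 and 68.8 TPM (-1.90, adjusted p = 0.0859 without the block). In both lines and treatments these 2 genes were higher in replicate 2 than in replicate 1, by more in the control line than in the shRCOR1 line.

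Others were less secure. AC117378.1 was listed at 0 TPM in both induced shRCOR1 libraries and at 7.81 and 18.5 TPM in the controls, but also at 0 TPM in both untreated shRCOR1 libraries and in untreated shCTRL replicate 2, and its call was lost when any 1 of the 4 libraries was left out (adjusted p = 0.0521 to 0.143). CNTNAP4 and COL11A1 were not called without induced shRCOR1 replicate 2 (adjusted p = 0.108 and 0.164) or without induced shCTRL replicate 2 (0.065 and 0.15), and HMGN1P13, a processed copy of HMGN1, was not called without induced shRCOR1 replicate 2 (0.0555). COL11A1, a fibrillar collagen, was at 1.56 and 2.32 TPM against 3.64 and 17.5 TPM and also lay lower in the untreated shRCOR1 libraries, at 1.63 and 2.09 TPM against 3.23 and 14.7 TPM. The summed level of the 12 fibroblast and endothelial markers was 56.6 and 97.9 TPM in the induced shRCOR1 libraries and 51.4 and 145 TPM in the induced controls, so of the 4 it was highest in the control library in which CNTNAP4 and COL11A1 were highest, and its part in these results was not tested. In induced shCTRL replicate 2 most of that sum came from COL1A1 (81.2 TPM), PDGFRB (40.1 TPM) and THY1 (15.5 TPM). The fibroblast markers LUM, DCN and COL1A2 were at 1.27, 0.08 and 0 TPM in the same library. PECAM1, which defines endothelium, was at 0 TPM in all 4 libraries.

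Neuroblastoma cells can hold an adrenergic or a mesenchymal state, each kept by its own transcription factors. Of 31 tested adrenergic factors 14 were called lower and 4 higher (median -0.30), beside 11% of all genes called lower. GATA3 was at 112 and 101 TPM against 190 and 217 TPM (-0.92 ± 0.10, adjusted p = 0.000613). ISL1 was at 38.2 and 27.6 TPM against 81.5 and 69.5 TPM (-1.19 ± 0.14). In both genes the 2 knockdown libraries lay below the 2 controls.

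EYA1 (-1.43), INSM2 (-1.48), LMO1 and LMO3 (each -1.23), TFAP2B (-1.09) and MEIS2 (-0.96) were lower too. The higher members were GATA2 (0.83), PHOX2A (0.48), RORA (0.70) and ZFHX3 (0.49), so the paralogs GATA2 and GATA3 differed in opposite directions. MYCN was at 2190 and 2385 TPM against 2928 and 1421 TPM, overlapping fully, and was not called (0.16 ± 0.23, adjusted p = 0.639). Without the block 10 members were called lower and 1 higher, and without either induced shRCOR1 library 2 were higher. In bulk RNA fewer cells of a state and less RNA per cell cannot be told apart.

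Of 26 tested mesenchymal genes 8 were called higher and 2 lower (median 0.20), beside 15.6% and 11% of all genes. FOSL2 (1.74), CDH11 (0.75), SNAI1 (0.57), ZEB2 (0.63), CD44 (0.94), YBX3 (0.77), SMAD3 (0.50) and FOSL1 (1.60) were the higher members. Of these FOSL2, FOSL1, SNAI1 and ZEB2 were also counted in lists described above. TWIST1 (-0.72) and SPARC (-0.60) were lower. FOSL1 was at 0.665 and 4.73 TPM against 0.0191 and 0.0252 TPM, so its knockdown replicates were far apart. Without induced shRCOR1 replicate 2 only 1 member was called higher, without induced shCTRL replicate 1 5, and without the block 3.

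Neuronal genes with REST sites, the classical CoREST targets, were called in both directions: of 32 tested, 7 were higher and 8 lower, a total of 46.9% beside 26.6% of all genes, with a median of -0.01. The higher ones included VGF and SCG2, the stathmin STMN4 (70.8 TPM in each knockdown library against 17.0 and 24.3 TPM, 1.75 ± 0.17) and the dopamine receptor DRD2 (1.35). SYP (0.33), SNAP25 (0.42) and SYT7 (0.54) were higher by less. The lower ones included the neurofilament NEFL (-0.61), SYT4 (-0.83), the potassium channel KCNH2 (-0.58), STMN2 (-0.67) and GRIN1 (-0.65). Without the block 6 were called higher and 3 lower, and the lower count was 3 without induced shRCOR1 replicate 1 and 5 without induced shRCOR1 replicate 2 or induced shCTRL replicate 2.

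Genes of catecholamine handling were divided in the same manner, with 5 of 18 tested called higher and 6 lower (61.1% beside 26.6%). MAOA, which degrades monoamines, was at 78.9 and 75.8 TPM against 156 and 215 TPM (-1.23 ± 0.16, adjusted p = 0.00123). The vesicular transporter SLC18A1 was at 18.2 and 18.3 TPM against 41.3 and 47.0 TPM (-1.23, adjusted p = 0.0122 with the block and 0.0847 without). GCH1 (1.12), ADRA2A (1.42) and DRD2 (1.35) were higher. The synthesis enzymes TH (373 and 590 TPM against 327 and 383 TPM, adjusted p = 0.203) and DBH (adjusted p = 0.531) were not called. The lower count was 3 without induced shRCOR1 replicate 2 or without either induced control, and the higher count 3 without either induced shRCOR1 library. Without the block 3 were called higher and 2 lower.

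The 2 hypoxia-inducible factor subunits differed in opposite directions. HIF1A was at 418 and 445 TPM against 166 and 142 TPM (1.49 ± 0.11, adjusted p = 0.000108). EPAS1, which encodes HIF-2 alpha, was at 82.9 and 57.9 TPM against 230 and 164 TPM (-1.47 ± 0.21, adjusted p = 0.00171). Neither gene's groups overlapped. Of the 31 tested hypoxia and glycolysis genes 14 were called higher and 3 lower (median 0.41), beside 15.6% and 11% of all genes. Among the higher were the glycolytic regulator PFKFB3 (2.26), ADM (1.13), CA12 (0.75), BNIP3 (0.60), HK1 (0.54) and PGK1 (0.47). GAPDH was lower by a small margin (-0.26) and so was the glucose transporter SLC2A1 (-0.77). The higher count was 8 without the block and 9 without induced shRCOR1 replicate 1.

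RET, the GDNF family receptor kinase, was at 172 and 213 TPM against 86.5 and 25.2 TPM (2.01 ± 0.46, adjusted p = 0.0138), with the control replicates far apart, and was not called without the block (adjusted p = 0.128), without induced shRCOR1 replicate 2 (1.26, adjusted p = 0.105) or without induced shCTRL replicate 2 (1.52, adjusted p = 0.0915). Of 21 tested receptor tyrosine kinase and neurotrophin genes 2 were called higher and 3 lower, 23.8% beside 26.6% of all genes, and 0 of them in either direction without the block. Of 14 tested calcium sensor genes 3 were higher and 2 lower, 35.7% beside 26.6%, and 1 in each direction without the block, with the NCALD relative HPCAL1 at 99.6 and 151 TPM against 34.4 and 32.7 TPM (1.84 ± 0.16), opposite to NCALD.

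The interferon list had 7 of 17 tested genes called lower and 0 higher (median -0.50), beside 11% of all genes called lower. IFI6, an interferon-induced mitochondrial protein, was at 2.66 and 3.05 TPM against 10.2 and 15.4 TPM (-1.82 ± 0.13, adjusted p = 9.58e-05). IFIT1 (-0.87), IFIT5 (-0.52), IFI27 (-0.54), IRF7 (-0.50), STAT2 (-0.58) and LGALS3BP (-1.36) were the others, most of them at low levels. Only 3 were called without the block, and 3 without induced shRCOR1 replicate 1, induced shRCOR1 replicate 2 or induced shCTRL replicate 2. Of 8 tested MHC class I genes only NLRC5 was called, and it was higher (1.12).

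Cell cycle and metabolic lists rested on single libraries. Of 30 tested G2/M genes 7 were called lower and 0 higher, or 23.3% beside 26.6% of all genes, led by TPX2 at 139 and 83.9 TPM against 197 and 137 TPM (-0.60, adjusted p = 0.00503). That count was 20 without induced shRCOR1 replicate 1, 1 without induced shRCOR1 replicate 2, 3 and 1 without induced shCTRL replicate 1 and 2, and 0 without the block. Of 30 S phase genes 3 were higher and 1 lower (13.3%), and without induced shCTRL replicate 1 there were 19 higher. Without induced shCTRL replicate 2 there were 1 higher and 5 lower, and 1 and 0 were higher without induced shRCOR1 replicate 1 and 2. Of 24 cholesterol synthesis genes 1 was higher and 4 were lower (20.8%), among them LSS and TM7SF2, and the counts became 9 and 1 without induced shRCOR1 replicate 2. The lower count was 8 without induced shRCOR1 replicate 1 and 1 without induced shCTRL replicate 2.

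Targets of p53 went both ways, with 6 of 25 tested higher, among them BBC3 (1.11) and PLK3 (1.02), and 6 lower, among them DDB2 (-1.07) and FDXR (-0.86), beside 15.6% and 11% of all genes. Without the block 4 were higher and 2 lower. Leaving out induced shRCOR1 replicate 1 gave 3 and 2, and leaving out replicate 2 gave 2 and 3. Of 29 integrated stress response genes 5 were higher and 2 lower, or 24.1% beside 26.6% of all genes, and 1 in each direction without the block. SLC7A5 (0.69, adjusted p = 0.0726 without the block) was higher and MTHFD2 (-0.88) lower. The median of that list was 0.10, but -0.21 without induced shCTRL replicate 1, where 2 were higher and 4 lower, and 0.37 without replicate 2. Without induced shRCOR1 replicate 1 or 2, 3 and 2 were higher. Notch pathway genes were called higher 4 times and lower 2 times of 18 (33.3% beside 26.6%). Without the block 0 of them were called higher and 1 lower, and without induced shRCOR1 replicate 2 1 was higher.

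**Figure D5:**
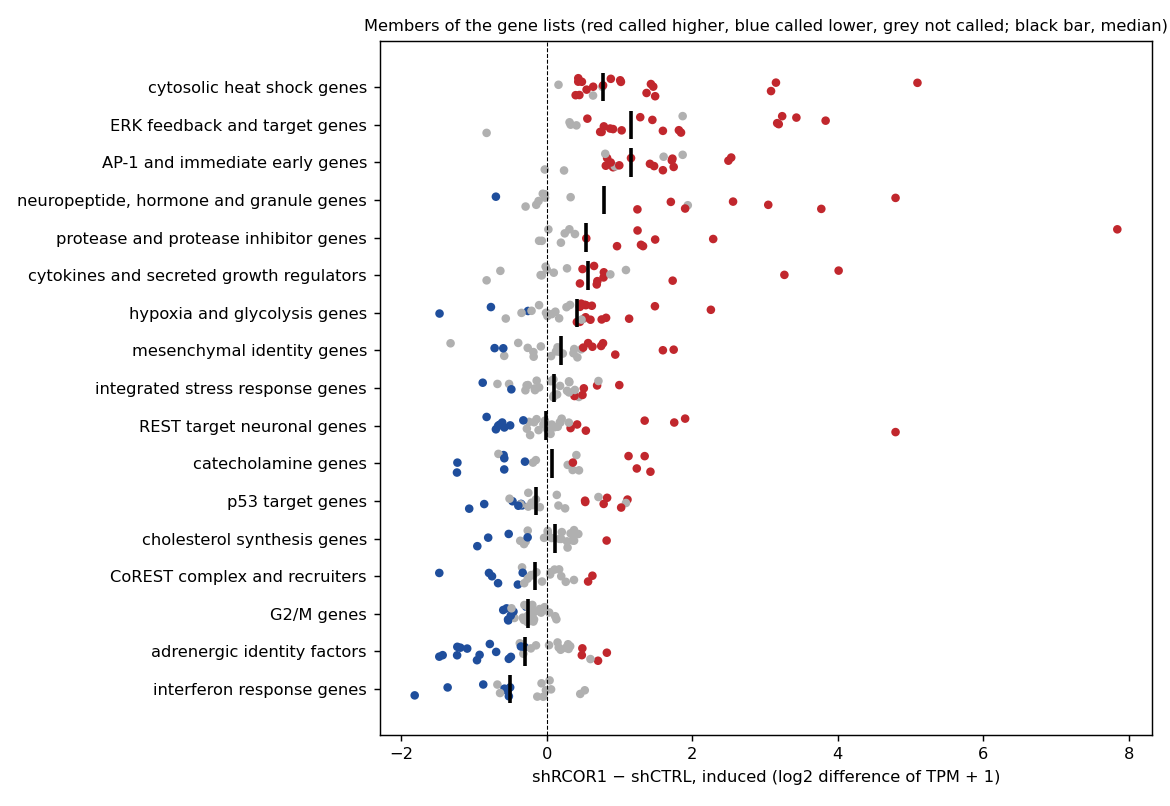
Log2 difference of induced shRCOR1 against induced shCTRL for the tested genes of each list; each dot is a gene, red where called higher, blue where called lower and grey where not called, and the black bar is the list's median. The ERK, immediate early and heat shock lists lie mostly right of 0, with medians of 1.16, 1.16 and 0.77, and the adrenergic list has a median of -0.30.

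Markers of other cell types were also summed. Of the 5 epithelial markers 4 were tested and 3 were called higher, beside 15.6% of all genes. These were EPCAM (1.40), KRT8 (1.09) and KRT18 (1.75). The epithelial markers had a summed level of 16.8 and 30.4 TPM against 6.49 and 12.5 TPM. CDH1, which defines epithelium, was at 0 TPM in all 4 libraries. Without the block 1 of the epithelial markers, EPCAM, was called. Schwann cell markers summed to 19.6 and 26.7 TPM against 17.4 and 34.4 TPM, with CDH19 at 0 TPM. Of 7 tested 1 was called higher and 3 lower, beside 15.6% and 11% of all genes. Without the block 0 of the lower ones were called. Leukocyte markers summed to less than 1 TPM in every one of the 4 libraries, with CD3E at 0 TPM.

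Against the other knockdown, induced shRCOR1 libraries differed from induced shRCOR2 libraries at 8103 genes (48.1%), 3489 higher (20.7%) and 4614 lower (27.4%). Of the 15 largest increases over the control 14 were also called higher than in induced shRCOR2 libraries, with ETV4 the exception (43.5 and 47.5 TPM against 29.1 and 24.7 TPM, log2 difference 0.74, adjusted p = 0.217). DKK1 was intermediate in the induced shRCOR2 libraries, at 159 and 134 TPM, and DUSP6 likewise at 21.6 and 17.7 TPM. TFPI2, HSPA6, CGA and APLNR, the apelin receptor gene (6.92 and 8.58 TPM with induced shRCOR1), were each below 1 TPM there. Of the 15 largest decreases 11 were also called lower than in induced shRCOR2 libraries. The comparison of the 2 knockdowns shares the induced shRCOR1 libraries with the comparison to the control, so these counts are side by side values and not separate evidence.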

How the data were processed

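Total RNA of 12 Kelly libraries was sequenced from directional libraries, per the labels' protocols. The authors trimmed reads with Trim Galore 0.6.7, aligned them with HISAT2 2.2.1 to GRCh38 and quantified them with StringTie 2.1.7, per the submitters' processing notes; the annotation release, strand setting and rule for reads with several locations are not stated in the labels or file headers. Each deposited file gives TPM, FPKM and mean coverage per gene, as the authors' StringTie run wrote them, and no read counts, so depth was judged only from the ratio of deposited coverage to FPKM.

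TPM was summed per gene ID. Genes at 1 TPM or more in at least 2 libraries (16842) were fitted on log2(TPM + 1) with limma 3.58.1 in R 4.3.3, with a variance trend, a mean for each of the 6 groups of all 12 libraries, and the replicate number as a block. Calls were made at an adjusted p below 0.05. The block follows the replicate numbers in the labels: in all 15 pairs of groups, libraries with the same number deviated together (correlations 0.372 to 0.75, and 0.622 for induced shRCOR1 with induced shCTRL). The fit was also run on simulated data with changes planted in the induced shRCOR1 group. In the induced comparison it recovered 38% of planted log2 changes of 0.5 and 94% of those of 1. The simulation gave each gene the same spread in all groups and the kind of replicate shift that the block fits. It therefore could not test the block or unequal spread between groups.

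The members and the 27 gene lists were chosen with earlier results of these data known, so the lists are not independent evidence. The text names RCOR1, RCOR2, RCOR3 and KDM1A, and members of lists. It also names the 15 largest called differences in each direction, among genes averaging at least 5 TPM in the higher group without overlap between groups. A further rule was for genes called in the same direction before and after induction. It could select no gene, since 0 genes were called in the untreated comparison. Some genes that meet these rules are counted but not reported here by name. Promoters were matched by symbol to RefSeq windows. Alternatives were no block, pseudocounts of 0.5 and 2, other filters on low values, FPKM, median-of-ratios and quantile scaling, no mitochondrial genes, no variance trend, only the 4 libraries compared, and each library left out in turn.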

Additional observations from a re-analysis of the deposited data

Results flagged for a closer look

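The change with doxycycline differed between the shRCOR1 and shCTRL lines in a test of the difference itself, the limma interaction term, for 1712 genes at an adjusted p below 0.05. Values here are that difference on the log2(TPM + 1) scale, positive where the shRCOR1 line changed more in the upward direction. It was -0.60 for RCOR1 and -0.75 for RCOR2.

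The 15 largest increases and the 15 largest decreases were chosen on induced libraries that this test also uses, so passing is not separate evidence. Of the 15 largest increases over the induced control all 15 passed this test. The difference was 7.70 for TFPI2, a protease inhibitor, and 5.10 for HSPA6, an inducible HSP70. The secreted factors had 4.36 (VGF), 3.64 (DKK1), 3.84 (CGA), 3.59 (IL11) and 2.73 (PENK). The ERK feedback genes had 3.45 (SPRY4), 2.86 (ETV4), 3.02 (DUSP4), 3.04 (DUSP6) and 3.06 (DUSP5). The HSP70 genes HSPA1B and HSPA1A had 2.93 and 2.83, and the apelin receptor gene APLNR had 2.80.

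Of the 15 largest decreases 10 passed. Among them the difference was -2.17 for KLK4, -2.11 for NCALD, -1.62 for HSD17B14, -1.56 for MAB21L1 and -1.58 for IFI6. It was -1.50 for the linker histone gene H1-2, -1.49 for GRK5, -1.62 for STAMBPL1 and -1.67 for PIGS. Of the 27 genes that passed, counted with RCOR1 and RCOR2, 17 passed without the replicate block, and KLK4 and HSD17B14 (adjusted p = 0.534 and 0.453) were among those that did not.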

How the results depend on the processing

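The replicate block mattered most: without it 1515 genes were called between induced shRCOR1 and induced shCTRL instead of 4484, 216 in the difference instead of 1712, and 4672 against induced shRCOR2 instead of 8103. Fitting only the 4 libraries compared gave 1708. Leaving out 1 library at a time gave 2101 (without induced shRCOR1 replicate 2) to 4692 (without induced shCTRL replicate 1) calls in the induced comparison, 0 to 1 in the untreated one, 595 to 2096 in the difference and 5697 to 6151 against induced shRCOR2. The difference was called for 607 and 707 genes without untreated shRCOR1 replicate 1 and 2, 820 and 650 without induced shRCOR1 replicate 1 and 2, and 595 and 618 without untreated shCTRL replicate 1 and 2. The induced count was 2363 without induced shRCOR1 replicate 1. With no filter beyond a TPM above 0, 1 gene was called in the untreated comparison. The difference for COL11A1 reversed sign, from -0.15 to between -0.78 and 0.48 when single libraries were left out; it was 0.27 and 0.42 without untreated shRCOR1 and shCTRL replicate 1, and 0.19 without induced shRCOR1 replicate 2. Fewer libraries leave fewer degrees of freedom; other causes were not tested. The share of calls in the difference that were higher was 64.8%, and 47.4% with FPKM, 45.1% with median-of-ratios and 52.3% with quantile scaling. With 2 libraries per group, a left-out library leaves 1, which is assumed to vary like the others. Without read counts, no counting error can be given for low genes.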

Other observations

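Further gene groups were looked at after the values were seen, so they are descriptions of this comparison only. Genes of protein quality control beyond the heat shock proteins were higher in the induced shRCOR1 libraries. Of 31 proteasome subunit genes 18 were called higher and 0 lower (median log2 difference 0.34), beside 15.6% and 11% of all genes, led by PSMD12 (0.82) and PSMC6 (0.74). That count was 2 without the replicate block, 7 without induced shRCOR1 replicate 1, 5 without induced shRCOR1 replicate 2 and 10 without induced shCTRL replicate 2. All 8 subunit genes of the cytosolic chaperonin, which folds actin and tubulin, were called higher (median 0.46), 3 without the block and 5 without induced shRCOR1 replicate 2. Of 14 chaperone genes of the endoplasmic reticulum 7 were higher, among them HSPA5 (0.77), and 0 lower, with 4 called without the block and 3 without induced shRCOR1 replicate 1. Without induced shCTRL replicate 1 there were 6 higher and 2 lower, and the median was 0.20 instead of 0.47.

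Of 13 tested HOX genes 4 were lower and 0 higher, beside 11% of all genes called lower, led by HOXD9 at 13.8 and 10.4 TPM against 26.7 and 20.4 TPM (-0.90, adjusted p = 0.000348), and 1 of them without the block. The HOX count was 1 without induced shRCOR1 replicate 1, 2 without induced shRCOR1 replicate 2 and 7 without induced shCTRL replicate 1.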
